A study of Arabidopsis thaliana with 20 samples.

Results

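The WRKY transcription factors of Arabidopsis thaliana were taken as every gene of the deposited expression table whose description contains the word WRKY, which gave 65 of 33296 genes. RNA was sequenced from shoots, each replicate being the pooled shoots of 10 plants from 1 dish, and the dishes held medium with 1% sucrose at 22 °C. From day 5 after sowing, aerated dishes received filtered air at 0.15 to 0.25 L per minute, whereas non-aerated dishes were opened only briefly on that day and were kept sealed with Parafilm. Both treatments used Col-0 plants without any transgene, so that sugar in the medium and growth on agar in a Petri dish are shared by all of them, and the labels place the harvest 15 days after vernalization while the study's own methods date it differently. The values of 4 aerated libraries (numbered 1, 3, 5 and 7) and 4 non-aerated libraries (numbered 2, 4, 6 and 8) were compared, and a second set of 12 samples was not used here because its table holds no value per library.

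Plant WRKY proteins bind DNA through a domain that carries the amino acids WRKY and folds around a zinc ion, and they recognize W-boxes, short elements with the core TTGAC. The family is divided by the number of these domains and the form of the zinc finger into group I, the subgroups of group II and group III. Many members are induced within minutes of wounding, touch or contact with a microbe, act downstream of MAP kinase cascades, and bind the W-boxes of their own and each other's promoters. Others act in salicylic acid signalling, senescence, phosphate supply and seed or trichome development.

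The description rule left out 8 genes that carry a WRKY name in RefSeq or in the family's usual numbering, among them WRKY6, WRKY17 and WRKY57, and it took in AT3G32090, which has no such name in RefSeq. In proteins translated from the RefSeq annotation the signature of the WRKY domain was found in 2 copies in 12 members, all of group I, in 1 copy in 52 members, and in no copy in AT3G32090. The deposited values are normalised counts, read counts divided by a size factor for the library. Recovered reads numbered 34330463 to 60255788 per library, and across genes the correlation of log2 values was 0.9714 to 0.9908 within a treatment and 0.9246 to 0.9675 between treatments. Of the 65 members, 54 passed the limit of at least 10 normalised counts in at least 4 libraries, and none of them did so with all 4 libraries of 1 treatment and no library of the other. In 5 of the 54, however, 1 treatment had fewer than 4 libraries at the limit. Among these were WRKY30, with 2 aerated libraries at the limit, and WRKY74, with 2 non-aerated ones, so that each passed mainly through the treatment where it was high. The 11 members that did not pass (WRKY10, WRKY24, WRKY34, WRKY41, WRKY43, WRKY64, WRKY66, WRKY67, WRKY68, WRKY71 and AT3G32090) reached at most 28.9 normalised counts in any library and were not tested. Shoot markers such as RBCS1A and CA1 summed to 1393464.3 to 1904640.2 normalised counts in aerated and 1119059.3 to 1406717.8 in non-aerated libraries, while root markers summed to at most 274.2 and seed markers to at most 4.3 in any library. Of the 4 shoot markers, LHCB1.1 was lower in non-aerated plants (log2 fold change -0.67, adjusted p = 0.0338, limma). The others did not pass, LHCB2.1 among them (-0.57, adjusted p = 0.0858, limma).

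Because WRKY proteins bind W-boxes in WRKY promoters, 4 promoters are shown, from 250 bases before to 50 bases after the annotated gene start (TAIR10.1 sequence from RefSeq, read 5′ to 3′ along the gene), with each W-box of the form TTGACC or TTGACT, on either strand, in capitals. WRKY30 (chr5:8154661-8154960, minus strand) has the largest rise in the family and 3 W-boxes, WRKY53 (chr4:12393933-12394232, minus strand) and WRKY29 (chr4:12291382-12291681, plus strand) have 2 each, and WRKY40 (chr1:30383311-30383610, plus strand) is shown as a strongly raised gene with none of this form in this window. A TTGAC core followed by A or G was not counted and stays in lower case, as in WRKY40. In the 1000 bases before its gene start WRKY40 holds 2 W-boxes of the counted form.
WRKY30: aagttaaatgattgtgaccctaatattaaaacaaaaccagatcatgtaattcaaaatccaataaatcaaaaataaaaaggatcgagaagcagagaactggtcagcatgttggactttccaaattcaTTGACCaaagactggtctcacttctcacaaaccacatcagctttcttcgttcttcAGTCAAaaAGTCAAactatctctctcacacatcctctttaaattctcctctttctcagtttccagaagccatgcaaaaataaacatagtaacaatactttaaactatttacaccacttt
WRKY53: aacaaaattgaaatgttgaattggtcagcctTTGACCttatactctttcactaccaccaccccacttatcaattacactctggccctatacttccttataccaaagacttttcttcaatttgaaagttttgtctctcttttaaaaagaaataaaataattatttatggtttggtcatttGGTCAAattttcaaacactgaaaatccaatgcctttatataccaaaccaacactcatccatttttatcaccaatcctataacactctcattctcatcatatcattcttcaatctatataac
WRKY29: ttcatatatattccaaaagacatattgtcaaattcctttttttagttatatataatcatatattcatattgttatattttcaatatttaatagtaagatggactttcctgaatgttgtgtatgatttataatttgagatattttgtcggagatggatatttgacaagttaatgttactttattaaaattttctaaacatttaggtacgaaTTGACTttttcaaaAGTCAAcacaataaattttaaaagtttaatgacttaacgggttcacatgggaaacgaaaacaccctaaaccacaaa
WRKY40: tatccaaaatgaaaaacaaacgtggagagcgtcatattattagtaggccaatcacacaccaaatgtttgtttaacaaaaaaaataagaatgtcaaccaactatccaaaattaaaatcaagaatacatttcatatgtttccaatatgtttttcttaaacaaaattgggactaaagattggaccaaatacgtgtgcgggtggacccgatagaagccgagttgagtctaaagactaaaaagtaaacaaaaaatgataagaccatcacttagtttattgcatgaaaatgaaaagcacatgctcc

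A minority of the WRKY members were higher in non-aerated plants, and few were lower. Of the 54 tested members, 12 rose at least 2-fold in non-aerated plants (adjusted p under 0.05, limma with Benjamini-Hochberg adjustment over all 20160 genes tested) and WRKY74 fell. The 12 are 22.2% of the tested members, where 5.24% of all tested genes rose by this rule, and 1 of 54 fell, where 2.63% of all tested genes did. In both directions together, 7.88% of all tested genes changed. Without the 2-fold limit WRKY15 and WRKY3 were added, 1 in each direction, which made 24.1% of the members higher, against 12.4% of all genes. The treatments did not overlap in 20 members (37.0%), 16 higher and 4 lower, where this held for 27.3% of all genes, 14.3% higher and 13.0% lower. The median log2 fold change of the 54 was 0.09, beside -0.002 over all tested genes. Log2 fold changes are on the log2(normalised count + 1) scale, positive where non-aerated plants were higher, and in pooled shoots a change in the share of a cell type and a change in RNA per cell cannot be told apart.

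In the promoters shown above, the W-boxes of WRKY30 begin 124, 69 and 61 bases before the gene start, the last 2 of them separated by 2 bases, and those of WRKY29 begin 40 and 26 bases before it. A W-box lay in the 300-base window in 5 of the 12 members that rose at least 2-fold (41.7%), in 33.3% of the 42 other tested members and in 32.4% of all 27443 protein-coding genes. Among all 1041 protein-coding genes that rose at least 2-fold, 520 held one. In a longer window of 1000 bases, 11 of the 12 members (91.7%) held a W-box, against 78.6% of the other tested members, 77.7% of all genes that rose at least 2-fold and 67.3% of all protein-coding genes. WRKY27 was the member without one, and WRKY11 had 5. A match describes letters in a window and was not tested as a binding site.

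**Figure D1:**
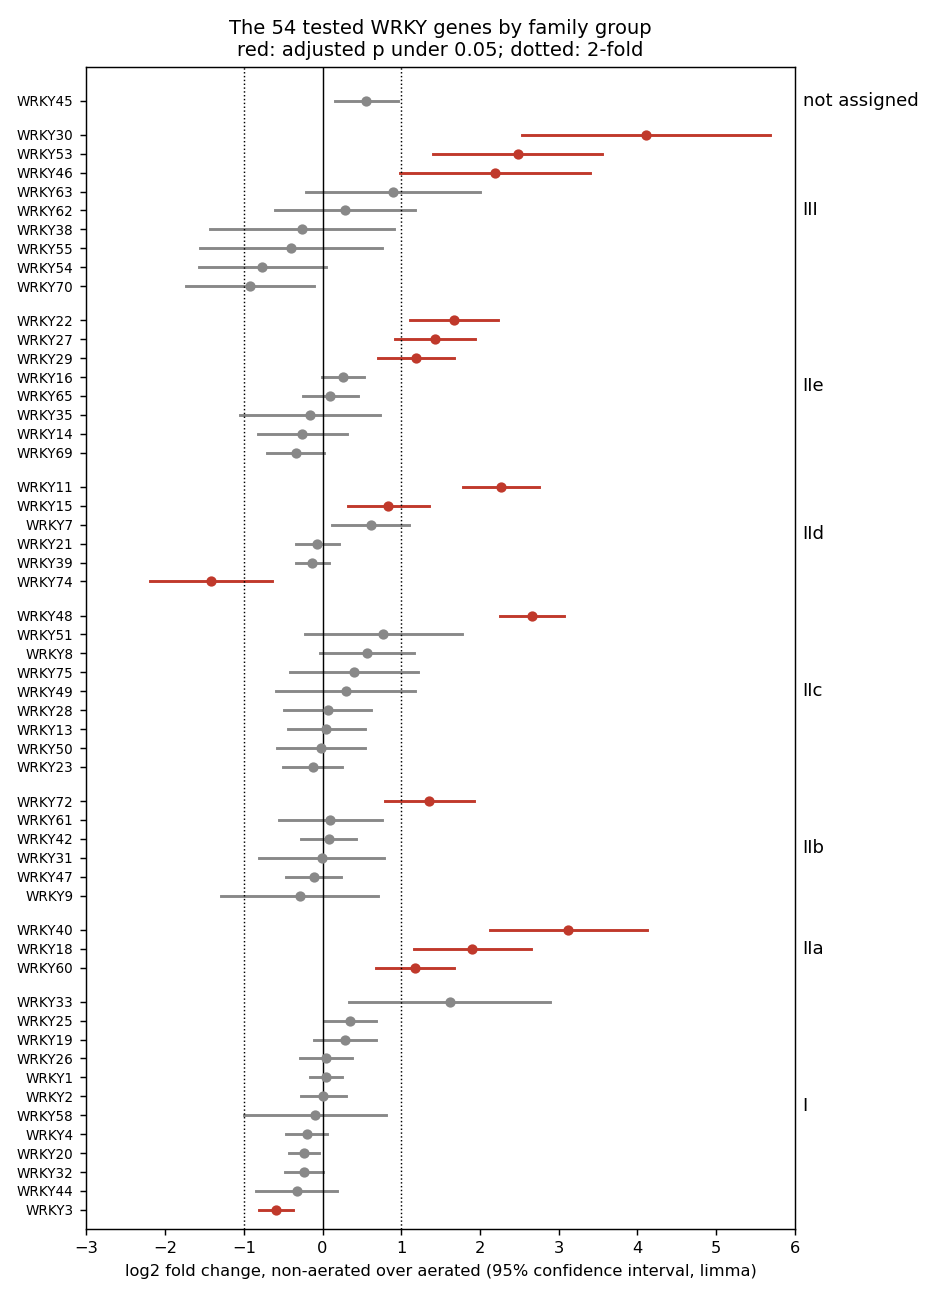
Log2 fold change of each tested WRKY member, non-aerated over aerated, arranged by WRKY group, with error bars giving the 95% confidence interval of the limma fit (n = 4 per treatment). The 3 members of group IIa all lie above 0, whereas the 12 tested members of group I have a median of -0.04.

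The changes were spread unevenly over the groups of the family. All 3 members of group IIa rose, with a median log2 fold change of 1.90. In group IIe 3 of 8 tested members rose, in group III 3 of 9, in group IIb 1 of 6 and in group IIc 1 of 9. In group IId, whose members bind calmodulin, WRKY11 and WRKY15 were higher and WRKY74 was lower among 6 tested. In group I, where most members have a pair of WRKY domains, WRKY3 was lower among 12 tested and no member passed as higher with limma. WRKY33 of this group passed as higher with edgeR (adjusted p = 0.0326), with DESeq2 (adjusted p = 0.0133) and with limma without library 6 or 8. The counts leave out the WRKY genes that the description rule missed. Among those, WRKY6 (group IIb), WRKY17 (group IId) and WRKY57 (group IIc) were higher, and WRKY12, WRKY36 and WRKY52 did not pass. Differences between the groups of the family were not tested.

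Group IIa comprises WRKY18, WRKY40 and WRKY60, which form dimers with each other and have overlapping roles in defence and in abscisic acid signalling. WRKY40 (AT1G80840, chromosome 1, 30383561 to 30385499) had normalised counts of 320, 669.3, 407.4 and 306.1 in aerated libraries 1, 3, 5 and 7, and of 1898.3, 3565.8, 2426.7 and 9481.9 in non-aerated libraries 2, 4, 6 and 8. Every non-aerated library lay above every aerated one, and library 8 was far above its group. The log2 fold change was 3.12 (standard error 0.45, adjusted p = 0.00124, limma), and 2.65 without library 8. WRKY18 (AT4G31800) had 3006.2, 4065.9, 2121.5 and 1711.8 in aerated plants, and 6865.7, 6381.1, 13340.8 and 14902 in non-aerated plants. The treatments did not overlap, and libraries 6 and 8 were the high ones (log2 fold change 1.90, standard error 0.33, adjusted p = 0.00334, limma). WRKY60 (AT2G25000), whose promoter is a known target of WRKY18 and WRKY40, went from 267.1, 342.6, 199.1 and 280.3 to 447.9, 537.6, 634.6 and 880, with libraries 6 and 8 again the highest. Its change was the smallest of the group, at 2.26-fold (log2 fold change 1.18, standard error 0.22, adjusted p = 0.00495, limma), and dropped just under 2-fold without library 8 (log2 fold change 0.997, adjusted p = 0.00539). WRKY40 overlaps the end of the opposite gene AT1G80850 by 51 bases, and reads of a kit that does not mark strand cannot be assigned there.

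Group III holds factors of the salicylic acid response and of leaf senescence. WRKY30 (AT5G24110, chromosome 5, 8153115 to 8154710), a gene induced by oxidative stress, was almost silent in aerated plants, with 12.6, 21.7, 9.2 and 5.2 normalised counts. In non-aerated plants it had 87.3, 295.8, 79.7 and 813.7. The lowest non-aerated library was several times above the highest aerated one, and the spread within non-aerated plants, 319 ± 345 (SD, n = 4), was larger than their mean. The change of WRKY30 was the largest of the family, 17.2-fold (log2 fold change 4.11, standard error 0.71, adjusted p = 0.00306, limma), and was 3.44 on the log2 scale without library 8. At such low aerated counts the size depended on the setting, with a log2 fold change of only 3.34 under a pseudocount of 10 and 4.72 with edgeR and with DESeq2.

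WRKY53 (AT4G23810), a promoter of leaf senescence, rose from 194.9, 442, 251.8 and 267.4 to 1251.6, 2375.2, 569.7 and 3330.1. The non-aerated values did not reach down to the aerated ones, although library 6 stood close to them (log2 fold change 2.48, standard error 0.48, adjusted p = 0.0056, limma). It overlaps the opposite gene AT4G23800 over 341 bases, whose own log2 fold change was -0.23 (adjusted p = 0.0803, limma). WRKY46 (AT2G46400), which acts with WRKY53 and WRKY70 in resistance to Pseudomonas, rose from 89.9, 132.5, 39.6 and 111.8 to 210, 419.7, 229.6 and 1177.6. The low aerated library 5 and the high library 8 made its spread wide (log2 fold change 2.19, standard error 0.54, adjusted p = 0.0174, limma), and without aerated library 5 the adjusted p was 0.0506.

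The third member of this set had the opposite sign. WRKY70 (AT3G56400), a positive regulator of salicylic acid responses and a brake on senescence, had 1881.5, 4017.9, 3184.2 and 2451.2 normalised counts in aerated plants. The non-aerated values were 903.2, 1448, 1104.4 and 3159.9, so that 3 libraries lay below all aerated ones and library 8 lay among them. The log2 fold change of -0.92 (standard error 0.36) did not pass the test (adjusted p = 0.0972, limma), and without library 8 it was -1.29 with an adjusted p of 0.00515. WRKY54 (AT2G40750), the closest relative of WRKY70 and also a brake on senescence, had 227.6 to 713.8 in aerated and 131.9 to 323.2 in non-aerated plants. Its log2 fold change was -0.77 (adjusted p = 0.157, limma), with overlapping treatments.

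**Figure D2:**
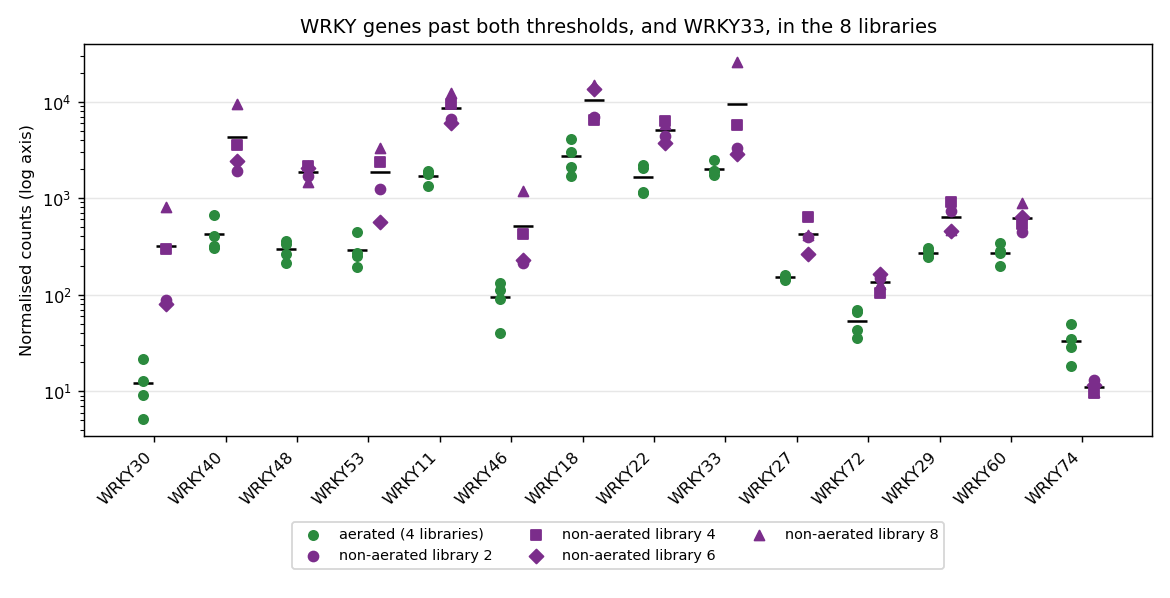
Normalised counts per library (log axis) of the 13 WRKY members past both thresholds and of WRKY33, with green points for the 4 aerated libraries, a purple symbol for each of the 4 non-aerated libraries and black bars for the means. Library 8 is the highest point for WRKY30, WRKY40 and WRKY33, and all non-aerated points lie below the aerated ones for WRKY74.

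Group IIe includes WRKY22 and WRKY29, which are induced by bacterial flagellin through the MAP kinases below the receptor FLS2. WRKY22 (AT4G01250) had 1165.9, 2028.4, 2203.2 and 1140.9 normalised counts in aerated and 4382.9, 6341.4, 3731.9 and 5823.2 in non-aerated plants. The treatments stayed well apart, and library 4 was the highest (log2 fold change 1.67, standard error 0.25, adjusted p = 0.00155, limma). WRKY29 (AT4G23550) had 244.4, 306.1, 250.5 and 284.6 in aerated and 739.6, 905.6, 461.3 and 465.6 in non-aerated plants. Libraries 2 and 4 were the high ones here, in contrast to WRKY18 and WRKY60 of group IIa. The change was 2.27-fold (log2 fold change 1.19, standard error 0.22, adjusted p = 0.00427, limma). The opposite gene AT4G23560, which shares 251 bases with it, averaged 0.8 and 1.2 normalised counts. WRKY27 (AT5G52830), which influences the onset of bacterial wilt, was tightly held in aerated plants at 142, 149.6, 150.3 and 160.8. In non-aerated plants it had 391.2, 641, 265.7 and 410.6, all above these (log2 fold change 1.43, standard error 0.23, adjusted p = 0.00208, limma).

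Among the other subgroups of group II, WRKY48 (AT5G49520, group IIc), a stress-induced repressor of basal defence, gave the steadiest large change. It had 361.2, 336.9, 265 and 214.9 in aerated plants and 1710.6, 2169.5, 2061 and 1465.4 in non-aerated plants, a 6.32-fold difference with little spread in either treatment. Its test gave the lowest adjusted p of the family (log2 fold change 2.66, standard error 0.18, adjusted p = 5.29e-05, limma), and library 8 was its lowest non-aerated library. WRKY72 (AT5G15130, group IIb), which contributes to basal defence, rose from 65.5, 43.4, 69.9 and 35.3 to 147.7, 104.6, 161.6 and 127.3, again without overlap (log2 fold change 1.36, standard error 0.25, adjusted p = 0.00455, limma).

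In group IId, WRKY11 (AT4G31550), a negative regulator of basal resistance, had 1780.7, 1885.6, 1823.5 and 1343 normalised counts in aerated and 6578.6, 9327.5, 5946 and 12198.7 in non-aerated plants. The change was 4.82-fold (log2 fold change 2.27, standard error 0.22, adjusted p = 0.000213, limma), with every non-aerated library far above the highest aerated one. WRKY17, which acts redundantly with WRKY11 but was not matched by its description, averaged 447 in aerated and 1605 in non-aerated plants (log2 fold change 1.76, adjusted p = 0.00105, limma). WRKY15 (AT2G23320), which responds to osmotic and oxidative stress, had 2713.9, 4192.6, 3778.8 and 3339.3 in aerated and 4308.6, 6657.7, 5290.2 and 9649.9 in non-aerated plants. The treatments just missed each other, and the change of 1.79-fold (log2 fold change 0.84, standard error 0.23, adjusted p = 0.0275, limma) was lost in 4 of the 8 fits without 1 library. WRKY74 (AT5G28650) was the only member that fell at least 2-fold in the limma fit of all 8 libraries, from 28.6, 18.3, 50.1 and 34.4 to 13, 9.6, 11.7 and 9.8. At such low counts its log2 fold change was -1.42 (standard error 0.35, adjusted p = 0.0165, limma), and without aerated library 7 its adjusted p was 0.0554. With a pseudocount of 10 the change was below 2-fold (log2 fold change -0.98), and without library 8 WRKY70 fell by more than 2-fold as well.

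Group I contains the substrates of MAP kinases that act in resistance to necrotrophic fungi. WRKY33 (AT2G38470), which drives camalexin synthesis, had 1729.5, 2485.2, 1927.6 and 1919.9 normalised counts in aerated plants. Non-aerated libraries had 3285.6, 5726.9, 2881.6 and 25804.9, all above the aerated ones, with library 8 at 7.85 times the median of the other 3. This spread kept its log2 fold change of 1.61 (standard error 0.57) from passing the test (adjusted p = 0.0689, limma). Without library 8 the log2 fold change was smaller, 0.92, and passed at an adjusted p of 0.0147. Tests on the recovered reads gave 2.21 with edgeR (adjusted p = 0.0326) and 2.22 with DESeq2 (adjusted p = 0.0133). The 2 relatives of WRKY33 in heat tolerance, WRKY25 and WRKY26, had log2 fold changes of 0.35 (adjusted p = 0.111, limma) and 0.05 (adjusted p = 0.844, limma). WRKY25 passed without aerated library 3 (adjusted p = 0.0379), and the value of WRKY26 was below 0 without non-aerated library 4 or 8.

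WRKY3 (AT2G03340), which takes part in resistance to Botrytis, was the member of group I that passed the test as lower. It had 2251.1, 2252.2, 2114.9 and 2302.4 in aerated and 1699.5, 1462.4, 1491.3 and 1304.2 in non-aerated plants, with means of 2230 and 1489, little spread and no overlap (log2 fold change -0.59, standard error 0.097, adjusted p = 0.00252, limma). Its paralogue WRKY4 had 1347.5 to 1475.6 in aerated and 1054.8 to 1454.1 in non-aerated plants (log2 fold change -0.20, adjusted p = 0.237, limma).

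The other 39 tested members did not pass, 19 with values below 0 and 20 above. For 25 of them the 95% confidence interval of the log2 fold change lay between -1 and 1, so that a 2-fold change was outside it. Among those nearest the threshold were WRKY45, which promotes phosphate uptake, at 414.1 to 519.3 against 584.6 to 1027 (log2 fold change 0.56, adjusted p = 0.0507, limma), and WRKY7 of group IId (0.61, adjusted p = 0.0707, limma). On the lower side, WRKY20 and WRKY32 of group I had treatments that did not overlap. Their log2 fold changes were -0.24 each (adjusted p = 0.0806 and 0.147, limma). For WRKY63 the log2 fold change was 0.90 (adjusted p = 0.227, limma), and it shares sequence with WRKY64, WRKY66 and WRKY67, which had next to no reads.

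Per kb of exon, the aerated shoot had WRKY15 first at 2731 ± 493 normalised counts per kb (SD, n = 4), followed by WRKY70 at 1962 ± 629, WRKY18 at 1345 ± 515 and WRKY22 at 1233 ± 423. The spreads of WRKY15 and WRKY70 overlap, as do those of WRKY70, WRKY18 and WRKY22. In non-aerated shoots the order was WRKY18 (5117 ± 2161 per kb), WRKY15 (5044 ± 1810), WRKY11 (4683 ± 1575), WRKY33 (4647 ± 5420), WRKY22 (3823 ± 918) and WRKY40 (3278 ± 2638), which do not differ beyond their spread. WRKY40 moved from place 20 to place 6 and WRKY11 from 9 to 3, whereas WRKY70 moved from 2 to 9.

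**Figure D3:**
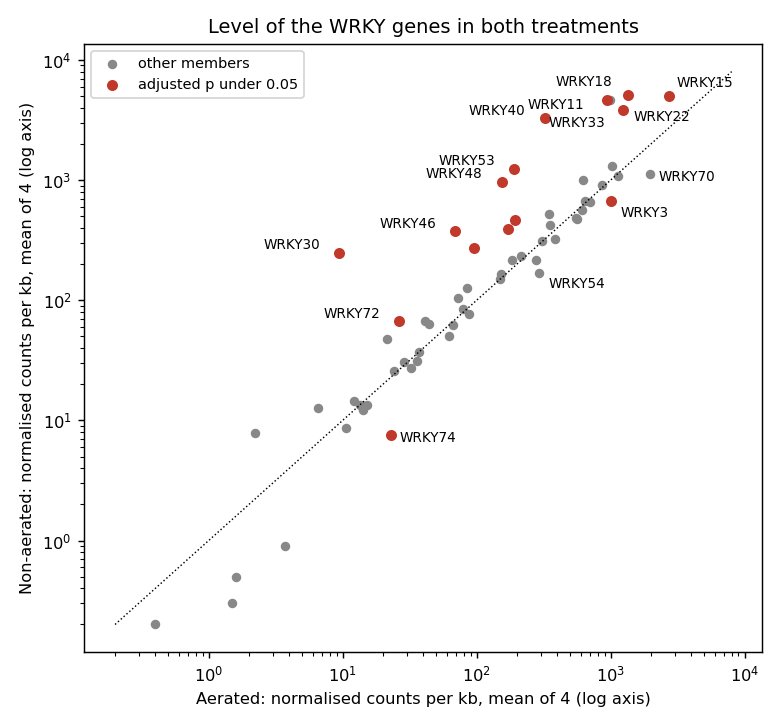
Mean normalised counts per kb of exon in aerated (x axis) and non-aerated plants (y axis), both on log axes, for each WRKY member above 0 in both treatments, with the dotted line marking equal levels. WRKY30 lies farthest above the line, and WRKY70 has a high level in aerated plants and lies below it.

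Summed over all 65 members, levels were 19106.3, 25422.3, 22045.3 and 20050 normalised counts per kb in aerated libraries and 31436.5, 42609.4, 34037.7 and 64786.6 in non-aerated libraries. Library 8 was the highest, and stood at 52062.3 without WRKY33. WRKY15 was the most abundant member in all 4 aerated libraries, while WRKY11, WRKY15, WRKY18 and WRKY33 held that place in libraries 2, 4, 6 and 8. Group IIa summed to 1893.4, 2727.6, 1479.9 and 1252.7 per kb in aerated and 5102.9, 6179, 8814.2 and 15064.2 in non-aerated libraries, without overlap. Group I summed to 6313.3 to 7223.9 per kb in aerated libraries and to 6909.7 to 18103.6 in non-aerated ones, with library 8 the highest. The sums of group III overlapped, at 1713.1 to 3770.6 per kb in aerated and 1619.5 to 6194.9 in non-aerated libraries. As shares of the family's sum, which itself was higher in every non-aerated library, group IIa was 6.2% to 10.7% in aerated and 14.5% to 25.9% in non-aerated libraries, group I 28.4% to 33.4% and 20.0% to 27.9%, and group III 9.0% to 14.8% and 4.8% to 9.6%.

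The members that rose did not peak in the same library. Library 8 was the highest non-aerated library for 7 of the 12, where this held for 46.1% of all 1057 genes that rose, and for 35.2% of the tested members, against 31.5% of all tested genes. Its value was 9.32 times the median of the other non-aerated libraries for WRKY30, 5.13 times for WRKY46 and 3.91 times for WRKY40. WRKY22, WRKY27, WRKY29 and WRKY48 were instead highest in library 4, and WRKY72 was highest in library 6.

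**Figure D4:**
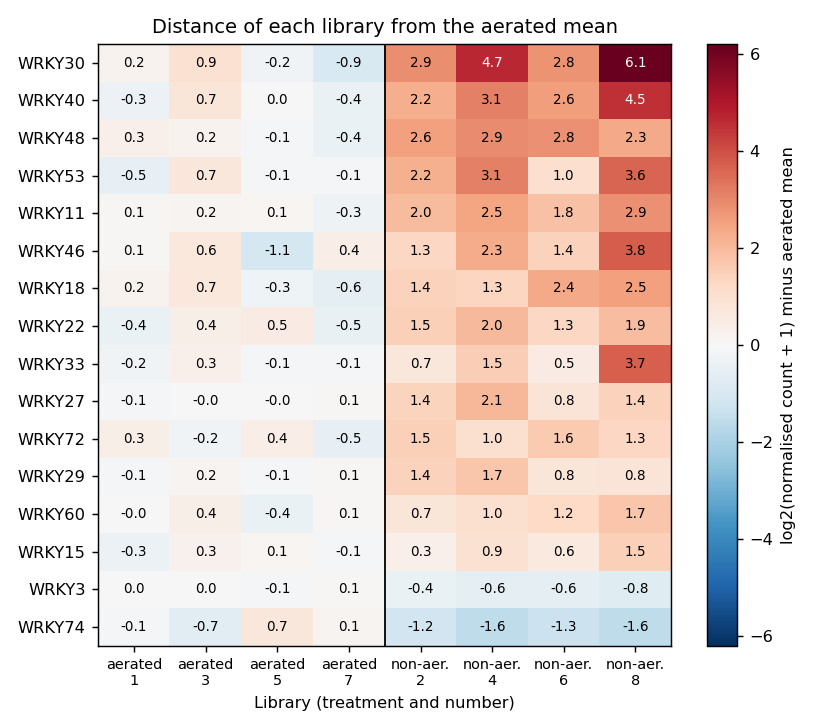
Difference in log2(normalised count + 1) of each library from the mean of the aerated libraries, for the members with an adjusted p under 0.05 and WRKY33, with libraries as columns and genes along the y axis. WRKY30, WRKY40, WRKY46 and WRKY33 have their highest value in library 8, while WRKY22, WRKY27, WRKY29 and WRKY48 have theirs in library 4.

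Genes that act upstream of WRKY factors were measured in the same fit. All 5 genes for immune receptors and their associated kinases had an adjusted p under 0.05 and were higher in non-aerated plants, where 12.4% of all tested genes were higher and 10.0% lower by this rule. They were the receptors for bacterial EF-Tu (EFR, log2 fold change 1.32, adjusted p = 0.000846, limma), flagellin (FLS2, 0.94, adjusted p = 0.0249) and chitin (CERK1, 0.62, adjusted p = 0.0105), the co-receptor BAK1 (0.72, adjusted p = 0.00207) and the cytoplasmic kinase BIK1 (0.99, adjusted p = 0.00436). FLS2 did not pass in 5 of the 8 fits without 1 library. Of 10 MAP kinase cascade genes, 3 rose. They were the kinase kinases MKK4 (1.49, adjusted p = 0.000434, limma) and MKK5 (1.31, adjusted p = 0.000187) and MEKK1 of an earlier step (1.00, adjusted p = 0.00191). The others did not pass, among them MKK1 (-0.40, adjusted p = 0.239, limma), MKK2 (0.21, adjusted p = 0.261) and MPK4 (0.14, adjusted p = 0.417). MPK3, which phosphorylates WRKY33, had 3602.6 to 4869.2 normalised counts in aerated plants and 4596.7, 5959, 5397.5 and 20662.7 in non-aerated plants (log2 fold change 0.80, adjusted p = 0.177, limma). Library 8 stood apart from the other non-aerated libraries for MPK3, as it did for WRKY33. Of the 3 tested VQ proteins, which bind WRKY domains, JAV1 rose (1.28, adjusted p = 0.00543, limma).

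Genes listed as WRKY targets moved in both directions, and their regulation by WRKY factors in these plants was not tested. Of 16 such genes in the fit, 6 were higher and 1 was lower in non-aerated plants, and the list's median log2 fold change was 0.62, where 12.4% of all tested genes were higher and 10.0% lower by this rule. The jasmonate repressor JAZ8 (log2 fold change 2.93, adjusted p = 9.64e-05, limma), CYP81F2 of indole glucosinolate synthesis (2.24, adjusted p = 0.00457), the flagellin-induced kinase FRK1 (2.12, adjusted p = 0.0086), PHI-1 (2.01, adjusted p = 0.00209), the ethylene synthesis gene ACS2 (1.33, adjusted p = 0.0484) and the alternative oxidase AOX1A (0.98, adjusted p = 0.000245) rose. ACS2 lost its call under 9 of the alternative settings, edgeR among them (adjusted p = 0.065). CYP71A13 of camalexin synthesis, a target of WRKY33, fell from 49.6, 33.1, 50.1 and 43.8 to 13, 16.8, 6.4 and 8.3, without overlap (log2 fold change -1.96, adjusted p = 0.00322, limma, and -1.37 with a pseudocount of 10). For PAD3, which completes camalexin synthesis, the log2 fold change was 0.53 (adjusted p = 0.326, limma). Values were 0.55 for PR1, the marker of salicylic acid responses (adjusted p = 0.58), and 0.26 for ICS1 of salicylic acid synthesis (adjusted p = 0.36). SAG12, a marker of late senescence below WRKY53, was not tested, with 0, 86.8, 205.7 and 0.9 in aerated plants and at most 0.8 in non-aerated plants.

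**Figure D5:**
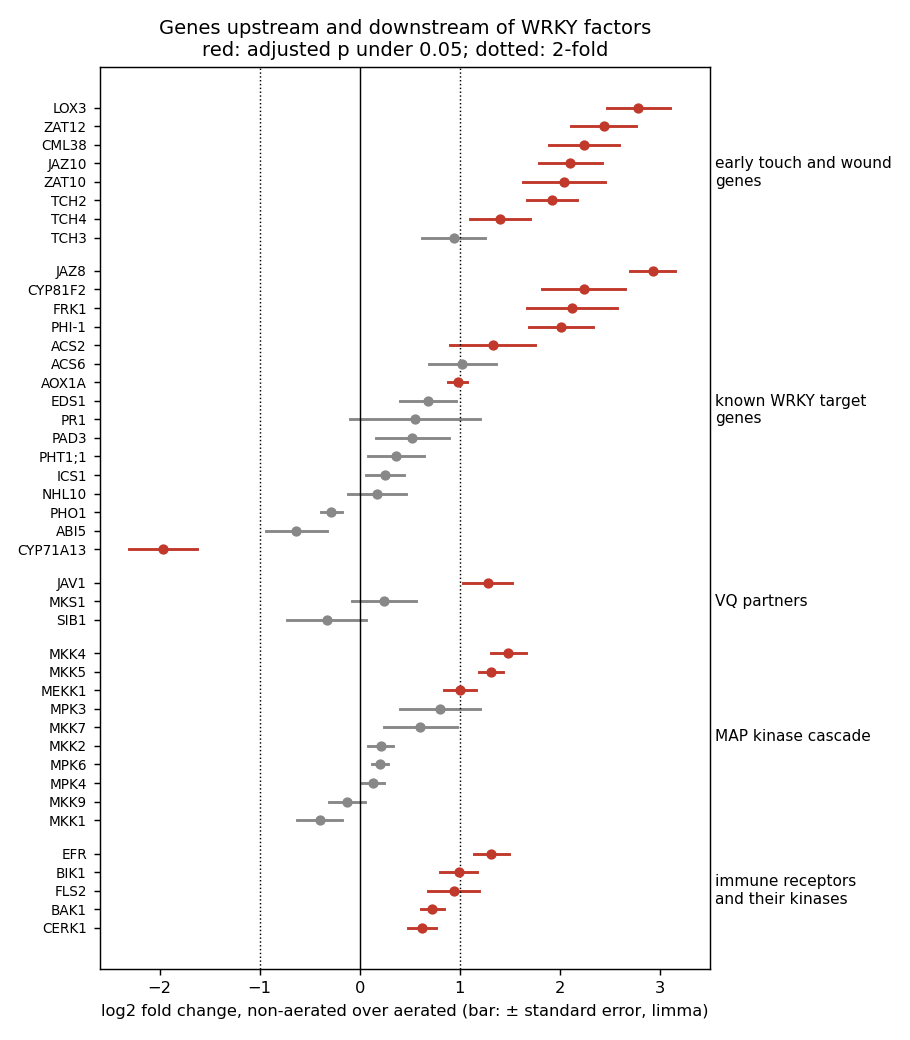
Log2 fold change, non-aerated over aerated, of the tested receptor, MAP kinase, VQ partner, WRKY target, and touch and wound genes, with error bars of 1 standard error of the limma fit (n = 4 per treatment). All 5 receptor and associated kinase genes lie above 0, and CYP71A13 is the lowest of the genes listed as WRKY targets.

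Genes induced within minutes of touch and wounding were also higher in non-aerated plants. Of 8 tested, 7 passed the test and were higher, and the list's median was 2.07 on the log2 scale, where 12.4% of all tested genes were higher by this rule. The lipoxygenase LOX3 had the largest change (log2 fold change 2.79, adjusted p = 0.0004, limma), followed by the zinc finger gene ZAT12 (2.44, adjusted p = 0.000893), and the calmodulin-like TCH3 did not pass (0.94, adjusted p = 0.0583). Their summed normalised counts were 22196.6, 29743.7, 25548.7 and 15604.7 in aerated and 53746.6, 45329.3, 83051.5 and 91519.6 in non-aerated libraries. In these sums libraries 6 and 8 were the highest, as they were for WRKY18 and WRKY60, but not for WRKY22, WRKY27, WRKY29 and WRKY48. TCH4 made up much of each sum, with 50958.7 normalised counts in library 6. Gene by gene, libraries 6 and 8 were the highest for TCH2, TCH4, JAZ10 and LOX3. For TCH3, ZAT10, ZAT12 and CML38 the highest were libraries 8 and 4. The part of a touch or wound response in the WRKY changes was not tested.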

How the data were processed

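The authors mapped single-end reads to TAIR10 with HISAT2 2.0.4, counted them on Araport11 genes with featureCounts 1.5.2 and scaled them by the size factors of DESeq2. The deposited signal is this normalised count, rounded to 1 decimal, from a kit that does not mark strand. The authors also deposited columns of their own comparisons (log2 fold changes, adjusted p-values), which were not used here, and the table of the second set holds nothing else.

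The reads were recovered from the steps between low values (100% whole in every library, tolerance 0.05 normalised counts), so their counting error is small for most members and largest near the limit of 10. The main test was limma 3.58.1 (trend, R 4.3.3) on log2(normalised count + 1) over genes with at least 10 normalised counts in at least 4 libraries (3 where a library was left out), with Benjamini-Hochberg adjustment over all of them and a fold change of at least 2. Alternatives were edgeR 4.0.16 (quasi-likelihood, TMM) and DESeq2 1.42.0 on the recovered reads (which called 1666 and 1756 of the 20160 genes), library totals, TMM factors, pseudocounts of 0.5 and 10, no filter beyond 1 read, members by reference name, and each library left out in turn. The scripts were tested on simulated data.

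The members and gene lists were chosen with earlier results of these data known. The genes named are the members past both thresholds, the other members with an adjusted p under 0.05, the 5 most abundant members per kb, close relatives of these, and companion genes with an adjusted p under 0.05. WRKY4, WRKY7, WRKY20, WRKY32, WRKY45, WRKY54, WRKY63, MPK3, TCH3, PAD3, PR1, ICS1, SAG12 and the genes listed for a library that stands apart were added after their values were seen. Groups of the family were assigned from general knowledge, with WRKY45 and AT3G32090 left unassigned. Coordinates, promoters and proteins are from RefSeq's TAIR10.1, which held 99.1% of the 33296 identifiers and all 65 members. Samples are labelled as biological replicates, each a pool of 10 plants from 1 dish, and p-values measure the spread between these pools.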

Additional observations from a re-analysis of the deposited data

Results flagged for a closer look

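Among 97 genes (the tested members, their partners and the companion genes), each of the 194 sets of 4 values was examined for a library far from the other 3, taken as a gap to the nearest value, as a share of the whole range, above Dixon's critical value. Such a library was found in 10 sets, or 5.15%, and chance gives about 1 in 20 where values are normally distributed. In 5 of the 10 it was non-aerated library 8. The gaps were taken on normalised counts and not on the log2 scale of the tests. On that scale, which was not examined here, a high library stands less far apart. WRKY33 had 25804.9 normalised counts there, against 2881.6 to 5726.9 in the other non-aerated libraries, and its kinase MPK3 had 20662.7, against 4596.7 to 5959. SIB1, a VQ protein that binds WRKY33, had 1331.3 against 314.1 to 457, the zinc finger gene ZAT10 had 4595.2 against 1055.5 to 1502.1, and the MAP kinase kinase MKK9, which acts above MPK3, had 2084 against 1191.2 to 1301.

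Aerated library 5 was the low one for WRKY4 (1347.5 against 1454.7 to 1475.6), for WRKY16 (1265.8 against 1706.8 to 1747) and for WRKY2 (784.5 against 965.1 to 988.7). Non-aerated library 4 was the high one for WRKY45 (1027 against 584.6 to 619.3) and for the MAP kinase MPK4 (2342.7 against 1747.4 to 1842.9).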

How the results depend on the processing

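Between 12 and 15 WRKY genes changed by both rules in all settings run, where the main count was 13, and the highest count was that of members taken by reference name. Without a library the count was 12 to 14. WRKY33 was added with edgeR, with DESeq2 and without library 6, and WRKY74 dropped out with a pseudocount of 10. Without library 8, WRKY63 and WRKY70 were added and WRKY60 dropped out. The count with an adjusted p under 0.05 was 13 to 19, that of the companion genes was 21 to 27, and the family's median change on the log2 scale was 0.05 to 0.19. Library totals and TMM factors moved the median of all genes to -0.012. Of 645 values of named genes under an alternative, 617 kept their sign and their side of the threshold, 20 lost a call, 6 gained one and 2 changed sign. Both sign changes were those of WRKY26, whose log2 fold change was -0.0729 to 0.171 with a library left out. The cause of these changes was not tested.

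No paired analysis was possible because the columns carry library numbers and not the replicate numbers of the labels. Depth limits the 11 members below the limit on counts, 6 of which have fewer than 10 reads over all 8 libraries.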

Other observations

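Of the 8 WRKY genes that the descriptions do not name as such, 6 were tested. WRKY6, which acts in senescence and in phosphate homeostasis, had 855.9, 922.8, 983.6 and 889 normalised counts in aerated plants and 3243.8, 6743.1, 2584 and 4370.6 in non-aerated plants. The treatments were far apart and library 4 was the highest (log2 fold change 2.12, standard error 0.25, adjusted p = 0.000439, limma). WRKY17, the relative of WRKY11, had 425.9, 454.6, 468.1 and 438.5 against 1501.6, 2334.3, 872.7 and 1711, again highest in library 4. WRKY57, which acts in drought tolerance and represses jasmonate-induced senescence, was higher by a smaller amount, at 455.7 to 551.1 against 702.6 to 817.8 (log2 fold change 0.55, adjusted p = 0.00464, limma). WRKY36 (log2 fold change 0.46, adjusted p = 0.0577, limma), WRKY52, also known as the resistance gene RRS1 (0.26, adjusted p = 0.223), and WRKY12, which acts in pith secondary walls and flowering (-0.58, adjusted p = 0.0934), did not pass. WRKY56 and WRKY59 had at most 7.9 normalised counts in any library.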
